A study of Mus musculus with 6 samples.

Results

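The miR-148 and miR-152 seed family holds the 3 mouse miRNAs mmu-miR-148a, mmu-miR-148b and mmu-miR-152, which carry the same seed, and it was measured by 3 of the 566 mouse miRNA probes of a NanoString panel. The rule took the probes by name, and the family was chosen by the value of miR-148a in the comparison described here, where it was known to be among the miRNAs with lower counts in the tumour-bearing livers. Differences of the family between the genotypes are therefore given as a description, with no test. RNA was taken from fresh frozen livers of 3 Apcfl/fl mice, which were homozygous for a hypomorphic Apc allele and developed hepatocellular carcinoma in which Wnt/β-catenin signalling was active, and from normal livers of 3 Apc+/+ mice without tumour. All 6 mice were on a C57Bl/6 background, and no Cre driver, age, sex or treatment was given for them in the sources used here. Each sample was RNA of liver tissue, so that fewer cells of a type and less RNA per cell cannot be told apart, and the share of tumour tissue in each Apcfl/fl liver was not given.

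The bases at positions 2 to 8 of a mature miRNA, its seed, pair with sites in messenger RNAs, so miRNAs that share a seed can act on overlapping sets of targets. Members of this family are known to target the transcript of the maintenance DNA methyltransferase Dnmt1, and miR-148a is also known to target the LDL receptor and the cholesterol transporter Abca1. MiR-148a is an abundant miRNA of hepatocytes and is often lower in liver cancer. The genes of miR-148b and miR-152 lie within Copz1 and Copz2, a pair of paralogues that encode zeta subunits of the coatomer coat.

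The mature sequences are shown because the results turn on probes for molecules that are nearly alike. Capitals mark the seed, the sequences are those of RefSeq on build GRCm38.p6, and all 3 members had an entry there, matched to the 3′ arm, the guide strand of these hairpins, since the panel's names carry no arm:
mmu-miR-148a: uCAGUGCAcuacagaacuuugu
mmu-miR-148b: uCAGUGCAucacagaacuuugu
mmu-miR-152: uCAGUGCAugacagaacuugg
The first 8 bases were the same in the 3 members. Counted from 1 at the 5′ end, miR-148b differed from miR-148a by C9U and U10C, with 20 of 22 bases the same. MiR-152 differed from miR-148a by C9U, U10G and U20G, with 18 of 21 bases the same, and from miR-148b by C10G and U20G. Of the 1738 mature mouse miRNAs in the RefSeq table, 3 had this seed, and these were the 3 members, so the sum of their counts covers the seed family as RefSeq lists it.

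The hairpins are shown because the 3 guides came from precursors that differ outside the guide and from separate genes. Capitals mark the guide strand:
Mir148a, chr6:51269812-51269910, minus strand: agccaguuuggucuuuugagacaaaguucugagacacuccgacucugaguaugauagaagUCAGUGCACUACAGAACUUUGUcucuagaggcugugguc
Mir148b, chr15:103285125-103285221, plus strand: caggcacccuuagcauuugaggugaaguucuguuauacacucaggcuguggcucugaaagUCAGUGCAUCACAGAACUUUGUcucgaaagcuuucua
Mir152, chr11:96850393-96850465, plus strand: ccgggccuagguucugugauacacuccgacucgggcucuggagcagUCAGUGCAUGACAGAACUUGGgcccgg
On GRCm38.p6 the span of Mir148b lay inside Copz1 and that of Mir152 inside Copz2, while Mir148a lay inside the predicted gene Gm38821. The annotation held 0 other miRNA genes within 10 kb of each of them. The panel held 0 probes for the passenger strands, so the guide strand was the only readout of each hairpin.

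The panel counts miRNAs by probe without amplification. Each member of the family had a probe of its own, while 9 probes name several miRNAs together. The deposited counts had not been scaled between livers and summed to 82942 to 133331 mouse miRNA counts per liver. They were scaled here with edgeR's TMM factors, 0.655 to 1.25, computed over the 174 mouse miRNAs with a mean of at least 20 counts over the 6 livers; the values so scaled are called normalized counts. All 3 members passed this minimum, and each lay in every liver above the background limit, the mean plus 2 SD of 33 probes for viral miRNAs (13.1 to 27.8 counts). Capture can differ between probes, so a difference in level between members is a difference in counts and not in molecules. Apc+/+ liver 3 stood apart with the lowest TMM factor and with 33% of its counts on the single probe miR-720, against 15.7% to 25.7% in the other livers. Hepatocyte identity was clear from miR-122, the main hepatocyte miRNA, with 6688 to 29686 deposited counts in every liver.

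MiR-148a made up most of the family and was lower in Apcfl/fl liver, miR-148b was higher, and miR-152 did not separate the genotypes. The sum of the 3 followed miR-148a and was 2.23-fold lower. The members thus did not share a direction, and the counts of the seed family became less dominated by miR-148a.

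The probe for miR-148a gave deposited counts of 2610, 2981 and 3281 in normal liver, where the Apcfl/fl livers gave 1324, 1594 and 2357. After normalization these were 3294, 3659 and 4030 against 1191, 1688 and 1548. Every Apcfl/fl liver lay below every Apc+/+ liver on both scales. It was the miRNA with the 4th to 6th highest count of the panel in the Apc+/+ livers and the 11th to 13th highest in the Apcfl/fl livers, and took 2.46% to 3.2% against 1.37% to 1.78% of all mouse miRNA counts. Apc+/+ liver averaged 3661 ± 368 (SD, n = 3) normalized counts of miR-148a, against 1476 ± 256 (SD, n = 3) for Apcfl/fl. The fitted log2 difference was -1.31 (standard error 0.21), a 2.48-fold lower level, and 6 of the 174 tested miRNAs had a lower fitted difference.

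MiR-148b was the least abundant member in normal liver, with 50, 40 and 49 deposited counts, which were 1.72 to 3.42 times the background limit of each liver. In the Apcfl/fl livers it had 102, 129 and 280 counts, or 3.66 to 14.6 times the limit. The 95% Poisson intervals of the deposited counts, which cover counting error only, spanned 28.6 to 65.9 over the Apc+/+ livers and 83.2 to 315 over the Apcfl/fl livers. Normalized counts were 63.1, 49.1 and 60.19 against 91.75, 136.6 and 183.8, with every Apcfl/fl liver above every Apc+/+ liver. Means were 57.46 ± 7.39 (SD, n = 3) for Apc+/+ and 137.4 ± 46 (SD, n = 3) for Apcfl/fl, a fitted log2 difference of 1.26 (standard error 0.35), or a 2.39-fold higher level. The spread between the Apcfl/fl livers was wide, and without Apcfl/fl liver 3, where miR-148b was highest, the log2 difference was 0.97.

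For miR-152 the Apc+/+ livers gave 152.33, 123.33 and 131.33 deposited counts, and the Apcfl/fl livers 98.33, 187.33 and 232.33. Normalized counts were 191.8, 151 and 160.9 against 88.15, 198.1 and 152.3, so that the highest and the lowest liver were both Apcfl/fl. The means, 167.9 ± 21.3 (SD, n = 3) and 146.2 ± 55.2 (SD, n = 3), differed by less than the SD between the Apcfl/fl livers, and the fitted log2 difference was -0.20 (standard error 0.34). It was 0.07 without Apcfl/fl liver 1 and 0.15 with the total count as library size, so no direction is given for miR-152. In Apcfl/fl liver 1 each of the 3 members had its lowest normalized count among the Apcfl/fl livers.

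**Figure D1:**
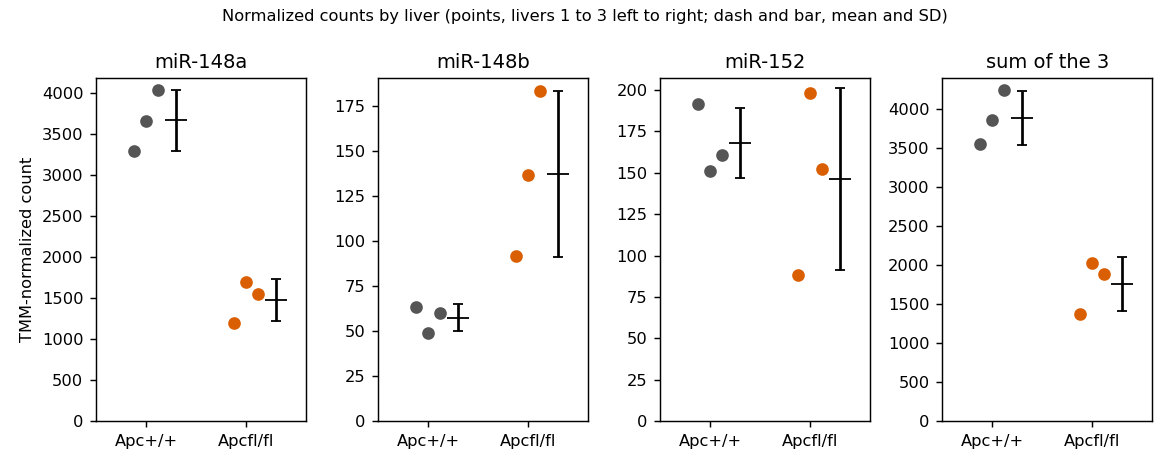
TMM-normalized counts of miR-148a, miR-148b, miR-152 and their sum (vertical axes, each from 0) in 3 Apc+/+ and 3 Apcfl/fl livers; points are livers and the dash with bar gives mean and SD. The Apcfl/fl livers sit below all Apc+/+ livers for miR-148a and the sum, above them for miR-148b, and on both sides of them for miR-152.

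Among the 174 tested miRNAs the background of such separations was high. All 3 Apcfl/fl livers lay below all Apc+/+ livers for 32 of the 174 (18.4%) and above them for 27 (15.5%), where the family had 1 of 3 members each way. With the total count as library size these numbers were 5 and 38. Since miR-148a was known from this contrast, nothing is read from the family's counts. The quasi-likelihood test of edgeR, after adjustment by Benjamini and Hochberg across all 174, called 0 lower and 0 higher (0% each way) at an adjusted p under 0.05. Before adjustment 19 were lower (10.9%) and 24 higher (13.8%) at a p under 0.05, and DESeq2 called 9 lower (5.17%) and 20 higher (11.5%) after adjustment. The median log2 difference of the tested miRNAs was 0.01, with 86 below 0 and 88 above.

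**Figure D2:**
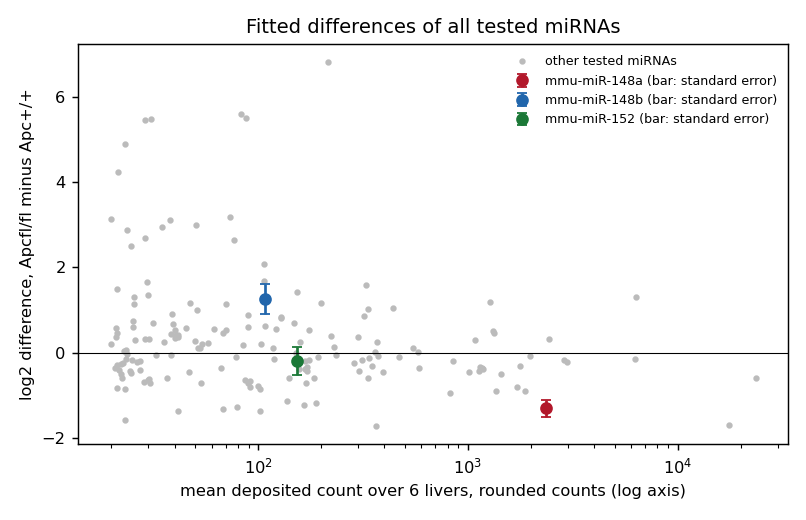
Fitted log2 difference between Apcfl/fl and Apc+/+ liver (vertical axis) against the mean count over the 6 livers (log axis) for the 174 tested miRNAs in grey, with the 3 members in colour and bars for their standard errors. MiR-148a lies at -1.31 among the abundant miRNAs, miR-148b at 1.26 and miR-152 at -0.20 at lower counts.

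Summed over the 3 members, the Apc+/+ livers had 3549, 3860 and 4251 normalized counts and the Apcfl/fl livers had 1371, 2023 and 1884, with no overlap. The sum averaged 3886 ± 352 (SD, n = 3) for Apc+/+ and 1759 ± 343 (SD, n = 3) for Apcfl/fl, a log2 difference of -1.16 (standard error 0.19, from the log2 values of the livers). The sum changed by -2127 normalized counts, of which miR-148a contributed -2185, miR-148b 79.95 and miR-152 -21.73. The higher count of miR-148b was thus small beside the lower count of miR-148a. As a share of all mouse miRNA counts, which needs no scaling factor, the family took 3.39%, 3.38% and 2.6% in normal livers against 1.58%, 1.86% and 2.16% in those of Apcfl/fl mice, again without overlap.

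Within a liver the members can be set against each other without any scaling between libraries. MiR-148a gave 92.8% (95% exact binomial interval 91.8% to 93.7%), 94.8% (94% to 95.6%) and 94.8% (94% to 95.5%) of the family's counts in normal liver. With Apcfl/fl it gave 86.9% (85.1% to 88.5%), 83.5% (81.7% to 85.1%) and 82.2% (80.7% to 83.5%). The mean share was 94.1% ± 1.15 (SD, n = 3) against 84.2% ± 2.43 (SD, n = 3) with no overlap between the livers of the genotypes. The intervals cover counting error within a liver only. MiR-148b gave 1.27% to 1.78% of the family in Apc+/+ and 6.69% to 9.76% in Apcfl/fl liver, and miR-152 gave 3.79% to 5.41% and 6.43% to 9.79%.

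**Figure D3:**
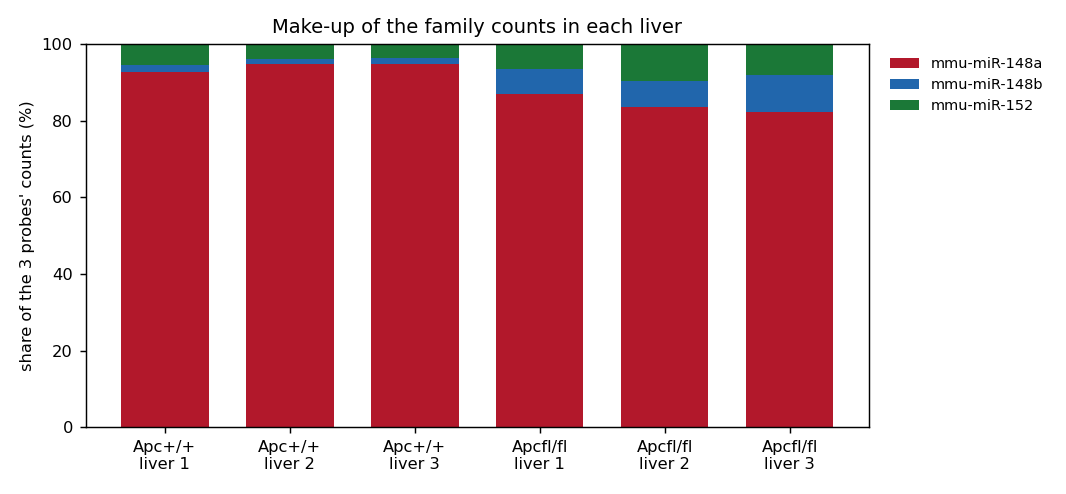
Share of each member in the summed deposited counts of the 3 probes (vertical axis, percent) in each of the 6 livers. MiR-148a holds 92.8% to 94.8% in the Apc+/+ livers and 82.2% to 86.9% in the Apcfl/fl livers, where the miR-148b and miR-152 parts are larger.

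In normal liver the count of miR-148a was 52.2, 74.5 and 67 times that of miR-148b, and with Apcfl/fl it was 13, 12.4 and 8.42 times. This was a log2 change of -2.53 (standard error 0.25), or 5.78-fold, the largest of the 3 pairs. The ratio of miR-148a to miR-152 was 17.2, 24.2 and 25 against 13.5, 8.52 and 10.2, a log2 change of -1.05 (standard error 0.26). The ratio of miR-148b to miR-152 was 0.329, 0.325 and 0.374 against 1.04, 0.69 and 1.21, a log2 change of 1.48 (standard error 0.25). For none of the 3 ratios did the genotypes overlap, and with each liver left out in turn the changes stayed between -2.68 and -2.33, between -1.23 and -0.9, and between 1.31 and 1.71. The order of the counts was miR-148a, miR-152, miR-148b in each Apc+/+ liver. In the Apcfl/fl livers miR-148a was again the highest, while miR-148b and miR-152 overlapped (91.75 to 183.8 and 88.15 to 198.1 normalized counts). Capture of one member by the probe of another was not tested.

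In pattern over the 6 livers miR-148a and miR-148b lay far apart, with miR-152 between them. Likeness was measured as the root mean square difference of log2 normalized counts, each miRNA centred on its own mean, and is a description over 6 livers of 2 genotypes. MiR-148a and miR-148b differed by 1.27, against a median of 0.86 between miR-148a and all others, and miR-148b was only the 143rd nearest of 173 miRNAs to miR-148a. MiR-152 was the 44th nearest to miR-148a, at 0.59, and the 57th nearest to miR-148b, at 0.76.

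The miRNAs nearest to miR-148a were miR-154 (0.21), miR-143 (0.27), a miRNA of smooth muscle and other mesenchymal cells, and let-7a (0.27). Their fitted log2 differences were -1.19 (standard error 0.26, edgeR adjusted p = 0.056), -1.13 (0.34, adjusted p = 0.087) and -0.82 (0.21, adjusted p = 0.068). Nearest to miR-148b were let-7i (0.16), miR-223 (0.22), which is known from myeloid cells, and miR-350 (0.3), with log2 differences of 1.04 (adjusted p = 0.059 in edgeR's test), 1.43 (adjusted p = 0.072) and 1.13 (adjusted p = 0.1). Let-7i went from 264.3 ± 0.849 to 544.7 ± 145 normalized counts and miR-223 from 71.81 ± 5.5 to 192.8 ± 95.5 (SD, n = 3 in each genotype). Nearest to miR-152 were let-7d (0.18), miR-30b (0.2) and miR-221 (0.2), whose log2 differences were -0.34, -0.36 and -0.21 with adjusted p-values of 0.38, 0.39 and 0.82 in edgeR's test. These miRNAs were picked for their likeness to a member over the same livers, so the direction of their differences followed from the choice. Their p-values are therefore no separate evidence of a change. Of the 13 alternatives, let-7i and miR-223 passed an adjusted p of 0.05 in 5, let-7a in 4, miR-154 in 3, miR-143 in 2 and miR-350 in 1.

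**Figure D4:**
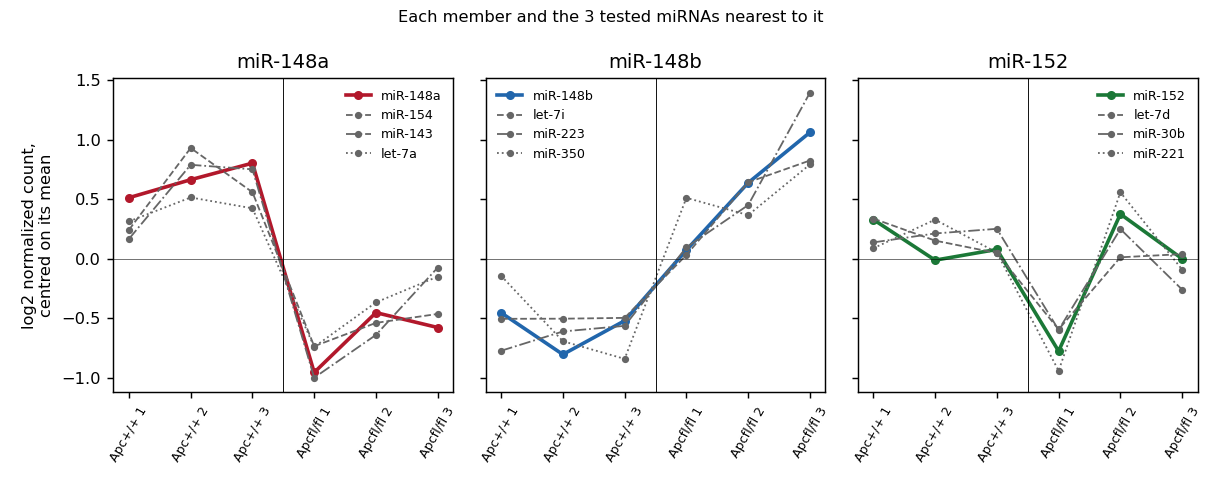
Log2 normalized counts centred on the mean of each miRNA (vertical axis) in the 6 livers for miR-148a, miR-148b and miR-152 (thick lines), each with the 3 tested miRNAs nearest to it (thin grey lines); lines only join the points of 1 miRNA, and livers of a genotype have no order. The root mean square differences from the member are 0.16 to 0.3.

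Other miRNAs known to target DNA methyltransferases were listed as well: the miR-29 family, which targets Dnmt3a and Dnmt3b, miR-101a and miR-143, which target Dnmt3a, and miR-126-3p, miR-185 and miR-342-3p, which target Dnmt1. All 8 were tested, 7 with a lower and 1 with a higher fitted level in Apcfl/fl liver, and their median log2 difference was -0.38, beside 0.01 for all tested miRNAs. EdgeR's test called 0 of them after adjustment, where 2 of the 8 were lower at an unadjusted p under 0.05, beside 10.9% of all tested miRNAs, and DESeq2 called 1 of the 8 lower, miR-143, beside 5.17%. MiR-29a, miR-29c, miR-143 and miR-101a, 4 of the 8, were lower without overlap between the genotypes after TMM scaling, beside 18.4% of all tested miRNAs. As shares of the total count 0 of the 8 were, beside 5 of the 174 tested. MiR-143 went from 199.4 ± 44.9 to 91.06 ± 30.7 normalized counts and miR-101a from 121.7 ± 28.5 to 69.83 ± 10.2 (SD, n = 3 in each genotype; edgeR adjusted p = 0.087 and 0.16). MiR-29a had 2009 ± 117 against 1608 ± 241, miR-29b 1195 ± 310 against 869.1 ± 256 and miR-29c 1357 ± 188 against 1003 ± 185 normalized counts (SD, n = 3), with adjusted p-values of 0.33, 0.37 and 0.25 in edgeR's test. The log2 differences of miR-126-3p, miR-185 and miR-342-3p were -0.23, -0.05 and 0.46, with adjusted p-values of 0.46, 0.95 and 0.67 in edgeR's test. MiR-29a, miR-126-3p and miR-185 turned positive when libraries were scaled by their total count, which moved the median of all tested miRNAs to 0.45.

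Of 10 miRNAs known to target Abca1, the LDL receptor or related cholesterol genes, 7 were tested, with 2 lower and 5 higher and a median log2 difference of 0.14. MiR-33, among the 5 higher, had 11.67 to 16.67 deposited counts in Apc+/+ and 20.67 to 31.67 in Apcfl/fl liver. It passed the minimum of 20 only through the Apcfl/fl livers, so nothing is read from its direction. MiR-185 stood on this list too. EdgeR's test called 0 after adjustment and 1 higher at an unadjusted p under 0.05, beside 13.8% of all tested miRNAs, and DESeq2 called 0. That miRNA was miR-106b, with 57.77 ± 6.75 normalized counts in Apc+/+ and 106.2 ± 29.4 in Apcfl/fl liver (SD, n = 3; edgeR adjusted p = 0.16).

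Markers of the cell types that a liver holds were set beside the family, and their part in its differences was not tested. EdgeR's test called 0 of them after adjustment. DESeq2 called 2 of 5 hepatocyte and 2 of 4 tested mesenchymal miRNAs lower, beside 5.17% of all tested miRNAs. It called 2 of 7 tested blood cell miRNAs higher, beside 11.5%. MiR-155 is among these 7 and passed the minimum only through Apcfl/fl livers 2 and 3, so nothing is read from the blood cell count. The summed level of 5 hepatocyte miRNAs was 24830 to 39770 normalized counts in Apc+/+ and 8254 to 14050 in Apcfl/fl liver, and all 5, miR-101a among them, had lower counts without overlap between the genotypes, beside 18.4% of all tested miRNAs with the same TMM scaling. As shares of the total count, miR-122 alone, 1 of the 5, was lower without overlap, beside 5 of the 174 tested miRNAs. MiR-122 carried most of the summed level and had a log2 difference of -1.71 (standard error 0.34, edgeR adjusted p = 0.056), beside -1.31 for miR-148a. It passed an adjusted p of 0.05 in 8 of the 13 alternatives, with adjusted p-values from 1.3e-05 in DESeq2 to 0.18 with no filter on low counts in edgeR. The 4 mesenchymal miRNAs, with miR-143, that passed the minimum were all lower in fitted level. The list summed to 893.5 to 1317 against 322 to 724.9 normalized counts. After TMM scaling 2 of the 4 were lower without overlap between the genotypes, beside 18.4% of all tested miRNAs. As shares of the total count 1 of the 4 was, beside 5 of the 174 tested. The blood cell list, 8 miRNAs with 7 tested, summed to 1181 to 1643 against 1039 to 4950 normalized counts. The upper end of 4950 came largely from miR-451 in Apcfl/fl liver 2. MiR-451 had 3593 deposited counts there, against 667 and 1452 in Apcfl/fl livers 1 and 3. Of the list's 7 tested members 6 had a higher and 1 a lower fitted level. After TMM scaling miR-223 alone was higher without overlap, beside 15.5% of all tested miRNAs. As shares of the total count 2 of the 7 were, miR-223 among them, beside 38 of the 174 tested. MiR-142-5p was at the lowest deposited value of 1 in every liver, and miR-155 at 1 in all livers but Apcfl/fl livers 2 and 3, with 78.33 and 58.33 counts. MiR-155 thus passed the minimum only through those livers. It is among the 6 with a higher fitted level, and nothing is read from its direction or from a call of it. The endothelial list, both strands of miR-126, summed to 3585 to 3808 against 2764 to 3553 normalized counts. After TMM scaling 1 of the 2 strands was lower without overlap, beside 18.4% of all tested miRNAs. As shares of the total count 0 of the 2 were, beside 5 of the 174 tested. The miR-200 family of biliary and other epithelial cells, 5 miRNAs with 3 tested, summed to 73.2 to 141.2 against 71.96 to 212.9, with overlap.

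The direction of miR-148a, miR-148b and the sum was the same in all 13 alternative settings, and so was the lack of overlap of miR-148a and miR-148b. The size moved with the scaling. With the total count as library size, the log2 difference was -0.91 for miR-148a, 1.66 for miR-148b and -0.74 for the sum, and set against the median difference of the 174 miRNAs it was -1.36 for miR-148a and 1.21 for miR-148b, against -1.33 and 1.24 with TMM. With no filter on low counts these values were set against the median of all 566 mouse miRNA probes. There they moved most from TMM for both members, to -0.80 and 1.78. Without Apc+/+ liver 3 the log2 difference was -1.16 for miR-148a, 1.36 for miR-148b and -1.01 for the sum.

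**Figure D5:**
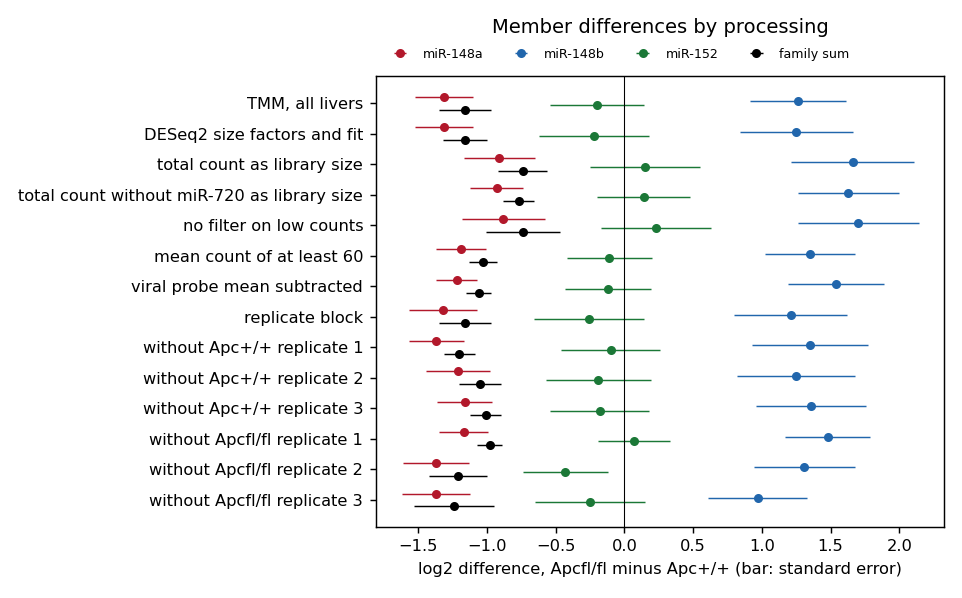
Log2 difference between Apcfl/fl and Apc+/+ liver (horizontal axis) for miR-148a, miR-148b, miR-152 and the sum under TMM scaling of all livers and 13 alternatives; bars are standard errors. MiR-148a and the sum stay between -1.37 and -0.74, miR-148b between 0.97 and 1.7, and miR-152 lies on both sides of 0.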

How the data were processed

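MiRNA levels were measured with the NanoString assay in liver RNA of 3 Apc+/+ and 3 Apcfl/fl mice, grouped by the sample titles. The authors deposited estimated counts per probe, not scaled between livers; within a probe the values above 1 share a decimal part, as they would if a constant of that probe had been subtracted, and none is below 1, which 446 of 3594 values held. Sources used here name neither step. The values of miR-148a and miR-148b were whole, so their decimals do not show whether anything was subtracted, and a subtraction would alter ratios of small counts most. All value columns belonged to a liver (0 did not).

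Counts were rounded, and mouse miRNAs with a mean of at least 20 were fitted with edgeR 4.0.16 under R 4.3.3 (TMM, quasi-likelihood test, log values with a prior count of 2, Benjamini-Hochberg adjustment over 174 miRNAs), on all 6 livers without a block. Standard errors of fitted log2 differences were the difference over the square root of F. Within a genotype no liver was a duplicate of another, since pairs had a chi-square of 17.2 to 89.1 for each degree of freedom. The procedure was run on simulated counts with large planted changes and a single spread for all miRNAs. That run checks the code and does not show how much could be found in these livers. The alternatives were DESeq2 1.42.0, the total count with and without miR-720, no minimum, a minimum of 60, subtraction of the mean viral probe count, a replicate block and each liver left out.

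The members, lists and tests were chosen with earlier results of these data known. MiRNAs named are the members, the listed miRNAs known to target DNA methyltransferases, miR-122 and the 3 tested miRNAs nearest in pattern to each member. Of other lists, counts, ranges and up to 2 miRNAs with the largest counts were planned. MiR-33, miR-106b, miR-142-5p and miR-155 were singled out after their values were seen. So was the count of list members without overlap on the total count. Sequences and gene neighbours come from RefSeq tables of GRCm38.p6; no build is named for the counts.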

Additional observations from a re-analysis of the deposited data

How the results depend on the processing

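The depth limits miR-148b most, with 40 to 50 counts in Apc+/+ liver, and 3 mice in each group limit every comparison. The causes of the changes below were not tested. MiR-148a, miR-148b and the family sum kept their direction in 13 alternatives, and the share of miR-148a and the 3 ratios between members in the 7 that apply to them.

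With the total count as library size, the log2 difference was -0.91 for miR-148a, 1.66 for miR-148b, 0.15 for miR-152 (sign turned) and -0.74 for the sum. Leaving miR-720 out of that total gave -0.93, 1.63, 0.14 (turned) and -0.77, and testing all miRNAs with no filter -0.88, 1.7, 0.23 (turned) and -0.74. Under them the median over the tested miRNAs moved from 0.01 to 0.45, 0.4 and -0.08. With 1 liver left out, miR-148a ranged from -1.37 to -1.16, miR-148b from 0.97 to 1.48, miR-152 from -0.43 to 0.07 (positive without Apcfl/fl replicate 1), the sum from -1.24 to -0.98 and the difference in the share of miR-148a from -11.34 to -8.98 percentage points.

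At an adjusted p under 0.05, 0 miRNAs were lower and 0 higher with edgeR's quasi-likelihood test (19 and 24 before adjustment). The counts were 9 and 20 with DESeq2, 1 and 16 with the total count, 3 and 18 where this total left out miR-720, 6 and 12 with a minimum of 60, and 6 and 9 with viral probe subtraction. With 1 liver left out there were 0 to 8 lower calls and 0 to 11 higher calls, and leaving out Apcfl/fl replicate 3 gave the most of each. MiRNAs lower without overlap between the genotypes (32) numbered 5 with the total count, 9 where this left out miR-720, 51 with no filter, 15 with the minimum of 60, 19 with viral probe subtraction, and 25 to 40 with 1 liver left out. Those higher without overlap (27) numbered 41 where the total left out miR-720, 48 with no filter, and 29 to 42 with 1 liver left out.

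The replicate numbers gave no sign of pairing the livers (livers with the same number correlated at -0.057, -0.062 and 0.12 in their deviations). With so few livers this cannot exclude a pairing. The fit with the replicate block called 3 lower and 4 higher, and the log2 differences were -1.32 for miR-148a, 1.21 for miR-148b, -0.26 for miR-152 and -1.16 for the sum.

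Of 218 values of 17 other named miRNAs under the alternatives, 22 changed sign. MiR-33 and miR-106b were not run under them. Under the total count, then that total less miR-720, then no filter, miR-29a was at 0.08, 0.07 and 0.09, miR-185 at 0.33, 0.33 and 0.4, miR-126-3p at 0.17, 0.15 and 0.21, let-7d at 0.03, 0.02 and 0.1, and miR-221 at 0.13, 0.13 and 0.23. MiR-30b was at 0.01 under the total count and 0.07 with no filter, and miR-185 at 0.27 with viral probe subtraction. With 1 liver left out, miR-185 ranged from -0.19 to 0.41 (0.41 and 0.19 without Apc+/+ replicate 2 and Apcfl/fl replicate 2), miR-221 from -0.6 to 0.11 (positive without Apcfl/fl replicate 1) and miR-342-3p from -0.39, without Apcfl/fl replicate 3, to 0.87.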
